A study of Mus musculus with 2 samples.

Results

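The RUNX family genes were taken to be Runx1, Runx2 and Runx3, which encode the DNA-binding α subunits of core binding factor, and Cbfb, which encodes its β subunit. Their peaks of open chromatin were collected by gene, as the peaks the deposited table annotates to one of the 4 genes together with distal intergenic peaks for which one of them has the nearest transcription start site (TSS). The rule found 30 of 63316 peaks, of which 15 belonged to Runx1, 10 to Runx2, 3 to Runx3 and 2 to Cbfb, and the 4 genes were among 20186 genes with a peak. For 28 of the 30 peaks the table names the gene itself, and the other 2 are intergenic peaks nearest to Runx3. The rule itself uses gene names and positions and no measured value.

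ATAC-seq uses the Tn5 transposase to cut and tag DNA that is not covered by nucleosomes, and read numbers follow how accessible a stretch is. The cells were primary cardiac fibroblasts from mouse heart. One library came from cells given scrambled siRNA (SCR, titled NC) and the other from cells given siRNA against Piezo2 (siPiezo2, titled SiPiezo2), a mechanically gated ion channel. Both received TGF-β (5 ng/ml) over 24 h, so untreated fibroblasts are not part of the comparison, and the age and number of the donor mice are not given in the sources used here. The study's methods put its mouse strains on a C57BL/6 J background. With 1 library per condition, a difference between them has no replicate check. The siRNA acts on the transcript, so the table holds no measure of the knockdown.

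RUNX proteins bind DNA through the Runt domain, and CBFβ, which does not contact DNA itself, raises their affinity and protects them from degradation. RUNX1 is known for its role in blood stem cells, RUNX2 as the master regulator of osteoblast differentiation and RUNX3 for its role in T cells and sensory neurons. Each Runx gene is read from a distal promoter, P1, and a proximal promoter, P2, which give proteins with different N termini, and RUNX factors act together with SMAD proteins downstream of TGF-β.

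The promoters that the called peaks cover are shown first, since they are the annotated start regions that called peaks of these genes overlap. RefSeq (GRCm38.p6) gave 6 promoter windows for the 4 genes, each from 250 bases before to 50 bases after a TSS. They were searched on both strands for TGTGGT and TGCGGT, the core RUNX motif, for GGAATG (TEAD), TGAGTCA (AP-1) and CAGAC (SMAD), and for the SRF motif known as the CArG box. Capitals mark RUNX and TEAD motifs, on either strand. The 250 bases before the TSS are printed 5′ to 3′ on the strand of the gene for the 3 promoters that a peak covered in whole or in part.
Runx1 P2, chr16:92697330-92697579, minus strand: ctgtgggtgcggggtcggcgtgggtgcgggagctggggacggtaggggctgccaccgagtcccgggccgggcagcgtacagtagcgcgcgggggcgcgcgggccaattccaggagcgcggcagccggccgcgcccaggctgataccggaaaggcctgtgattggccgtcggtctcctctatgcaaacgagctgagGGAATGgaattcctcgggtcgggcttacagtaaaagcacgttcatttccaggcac
Cbfb, chr8:105170424-105170673, plus strand: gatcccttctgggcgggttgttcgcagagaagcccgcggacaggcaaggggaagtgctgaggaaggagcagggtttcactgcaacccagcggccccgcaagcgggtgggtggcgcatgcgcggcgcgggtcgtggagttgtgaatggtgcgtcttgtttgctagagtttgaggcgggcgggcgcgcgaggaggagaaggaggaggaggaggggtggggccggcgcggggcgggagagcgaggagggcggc
Runx2 P1, chr17:44814628-44814877, minus strand: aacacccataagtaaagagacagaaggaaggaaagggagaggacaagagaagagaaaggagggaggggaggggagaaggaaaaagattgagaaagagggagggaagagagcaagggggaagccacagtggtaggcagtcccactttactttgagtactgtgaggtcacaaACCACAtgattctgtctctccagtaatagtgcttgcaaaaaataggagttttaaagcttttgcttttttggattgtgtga
The windows of Runx1 P2 and Cbfb lay wholly inside a called peak. Only 90 of the 300 bases at Runx2 P1 did, all of them at the 5′ end of the window.

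The promoters differed in base composition. Runx1 P2 had 69.0% G and C with 35 CpG dinucleotides, and Cbfb had 69.7% with 30. Runx1 P1 and Runx2 P1 had 45.0% and 45.3%, with 2 CpG each, whereas Runx3 P1 had 63.7% with 8 and Runx3 P2 had 77.3% with 45. None of the windows of Runx1 P2, Runx3 P2 or Cbfb held a RUNX motif, while TGTGGT or TGCGGT was found in 22.4% of all 32817 promoters of this length. Separately, TGTGGT was present in 16.8% of them and TGCGGT in 6.45%. The TEAD motif in Runx1 P2 starts 55 bases before the TSS, and 14.7% of all promoters hold one. TGAGTCA (5.20% of all promoters) and the CArG box (1.63%) were found in none of the 6 windows. CAGAC, present in 49.6% of all promoters, was found at Cbfb and at both Runx3 promoters.

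The P1 windows of the 3 Runx genes hold an identical run of 18 bases with a pair of RUNX motifs, a feature found after the sequences had been seen. It is shown with 6 bases on each side.
Runx1 P1: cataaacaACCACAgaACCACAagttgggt
Runx2 P1: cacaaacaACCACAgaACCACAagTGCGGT
Runx3 P1: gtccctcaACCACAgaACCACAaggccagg
The run begins 26 bases after the TSS at Runx1 P1, 21 bases after it at Runx2 P1 and 136 bases before it at Runx3 P1. Of the 32817 promoters, 4 hold it, and the fourth is annotated to Gm16225. Runx2 P1 carries 2 further RUNX motifs, TGCGGT directly after the run and TGTGGT 80 bases before the TSS. A letter match of this kind is a description and not a site that was seen to be bound. No peak covered the run at any of the 3 genes. The nearest peak edge was 2.24 kb from the table's TSS at Runx1 P1 and 24.62 kb from it at Runx3 P1, and the peak at Runx2 P1 ends 161 bases before the RefSeq TSS.

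The table gives 1 normalized read density per library and peak, in reads per kb on the authors' scale, from which log2((siPiezo2 + 1)/(SCR + 1)) was computed, so that values below 0 are lower in siPiezo2. Positions of peaks and genes are those of the table, whose gene coordinates are those of GRCm39, whereas the submitters' processing notes name mm10. The windows of all peaks held 4615335 reads in SCR and 2754046 in siPiezo2, and the reads recovered at the RUNX family peaks ranged from 31 to 268 in SCR and from 16 to 134 in siPiezo2. Brackets give 95% exact binomial (Clopper-Pearson) intervals, which cover counting error only. Peaks called in both libraries varied with 2.15 times the variance of counting error by the median squared deviation and with 4.75 times by the mean. The widened intervals below take in the factor of 2.15. With 4.75, 0 of the 4 genes and 0 of the 30 peaks had an interval wholly below 0.

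All 4 genes had a lower summed density in siPiezo2 than in SCR. Runx1 went from 638 to 557, a log2 ratio of -0.20 [-0.32 to -0.07], on 1608 and 861 reads. Of its 15 peaks, 10 have overlapping windows, so that reads count more than once and this interval is too narrow. Keeping 1 peak of each of the 5 overlapping pairs, which leaves 10 peaks, the log2 ratio was -0.24 [-0.40 to -0.09]. The values for Runx2 were 285 and 235, with a log2 ratio of -0.27 [-0.46 to -0.09] on 698 and 368 reads. Neither gene was near a 1.5-fold difference, and the median of all genes, -0.11, lay inside both intervals. Runx3 went from 84.7 to 60.3, a log2 ratio of -0.48 [-0.85 to -0.13] on 203 and 97 reads. At Cbfb the sums were 111 and 82.1, a log2 ratio of -0.43 [-0.74 to -0.12] on 283 and 126 reads. These intervals of Runx3 and Cbfb ended just below the median of all genes, and they contained it once widened, to -0.99 to 0.03 for Runx3 and -0.87 to 0.01 for Cbfb. The widened intervals were -0.37 to -0.02 for Runx1 and -0.54 to -0.01 for Runx2. In order of the log2 ratio the genes ran Runx3, Cbfb, Runx2 and Runx1, and each interval overlapped the next in that order, so the order itself was not resolved at this depth.

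**Figure D1:**
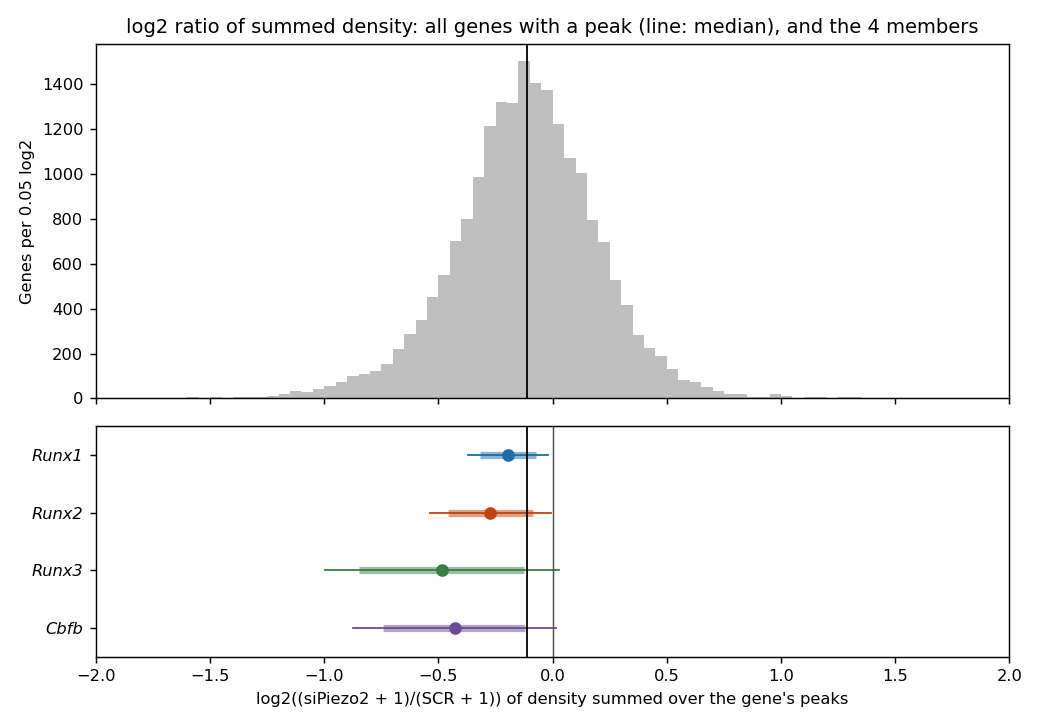
Upper panel, number of genes (vertical axis) by log2 ratio of summed normalized read density (horizontal axis, siPiezo2 over SCR, pseudocount 1) for all 20186 genes with a peak, with values past 2 in either direction put in the end bins and the median as a line. Lower panel, the 4 genes on the same axis with 95% counting intervals (thick bars) and widened intervals (thin lines): all 4 points lie left of 0 and left of the median of -0.11, and Runx3 and Cbfb have the widest intervals.

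Of all 20186 genes, 65.7% were below 0, so a value below 0 was the usual case in this table. Past 1.5-fold, 6.45% of all genes were lower (ratio below 0.66) and 1.49% were higher, and 0 of the 4 RUNX family genes were in either group. Runx1 stood at percentile 38.5 of all genes and Runx2 at 28.5, whereas Cbfb stood at 14.4 and Runx3 at 11.1. Among genes with a similar number of peaks (neither number under 0.8 times the other), 44% of 475 had a lower ratio than Runx1 and 27.4% of 1111 had a lower ratio than Runx2. The corresponding shares were 14.5% of 4416 genes for Cbfb and 11.1% of 2570 for Runx3. Runx1 and Runx2 therefore lay in the lower middle of such genes, and Cbfb and Runx3 toward their lower end. Over all 30 peaks the family sum went from 1118 to 935, a log2 ratio of -0.26 [-0.35 to -0.17], widened to -0.39 to -0.12. With 1 peak of each of those pairs kept, which leaves 25 peaks, it was -0.30 [-0.40 to -0.19]. In bulk chromatin, a different share of cells with an open site and a different openness per cell cannot be told apart.

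Of the 30 peaks, 24 (80%) were below 0 and 6 above, beside 63.7% below 0 of the 63316 peaks of the table. Their median log2 ratio was -0.24, beside -0.13 for all peaks. A ratio below 0.66 was reached by 8 of the 30 peaks, or 26.7%, beside 13.5% of all peaks, and a ratio above 1.5 by 0, beside 3.21% of all peaks. The 8 peaks comprised 2 of Runx1, 4 of Runx2, 1 of Runx3 and 1 of Cbfb, and 0 of the 30 passed 2-fold. The difference between 26.7% and 13.5% was not tested, since peaks of 1 gene are not replicates of a condition and 10 of the 30, all of Runx1, share reads with a neighbouring window. In 5 peaks (16.7%) the whole interval lay below 0, beside 11.4% of all peaks. In 3 of these (10%) the widened interval did, beside 3.65% of all peaks, at 1 peak each of Runx1, Runx3 and Cbfb. Next to the limit, with no weight given to which side they fell on, the intronic peak of Cbfb had a ratio of 0.631 and a Runx2 peak 0.637, and just outside it a Runx3 peak had 0.709 and a Runx1 peak 0.722.

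By the library in which they had been called, the peaks divided much as the whole table did. Of the 30, 12 (40%) were called in both libraries, 18 (60%) in SCR only and 0 in siPiezo2 only, beside 33.8%, 64.0% and 2.16% of all peaks. Among the 12 called in both, 11 were below 0 with a median of -0.24, while all peaks called in both had a median of 0.00 and 49.7% below 0. If the authors' scale was fitted over the peaks common to both libraries, as inferred below, that background was set by the fit. Of these 12, 3 passed the lower limit (25%), beside 5.36% of all peaks called in both. Of the 18 called in SCR only, 13 were below 0 with a median of -0.30, beside -0.23 and 73.1% for all peaks of that kind. The lower values were thus not limited to peaks that siPiezo2 lacked as calls. Read depth moved with the condition, the siPiezo2 library having 0.597 times the reads of SCR in the windows of all peaks of the table. The part of depth in the result was not tested.

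**Figure D2:**
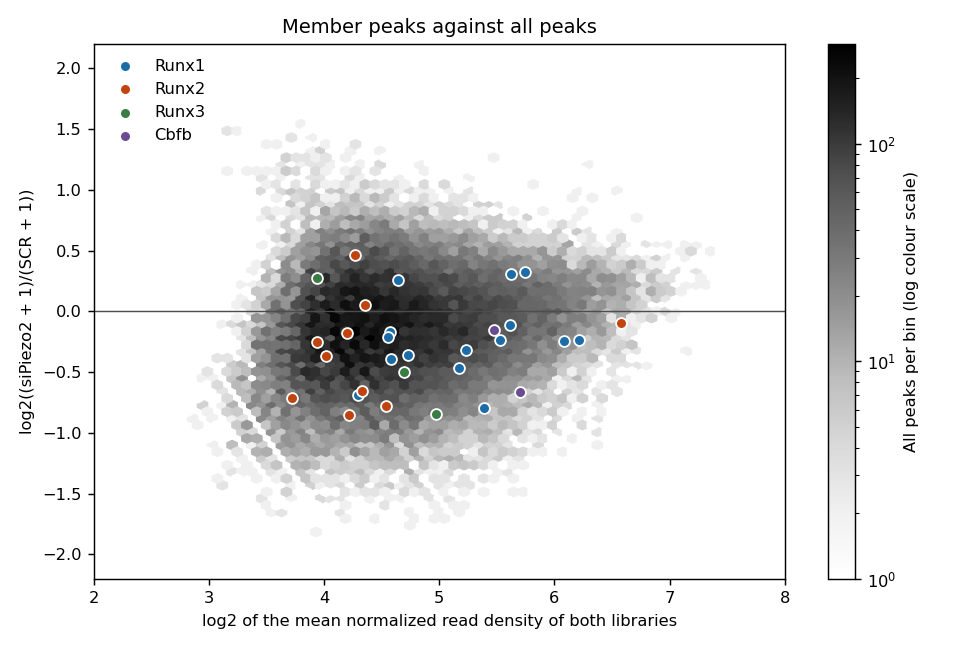
Log2 ratio of each peak (vertical axis) against the log2 of its mean normalized read density (horizontal axis), with all peaks within these axes as grey hexagons, darker for more peaks, and the RUNX family peaks as coloured points. The 30 points spread over weak and strong peaks, 24 of them below 0 and none beyond 2-fold.

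By position, 23 of the 30 peaks were intronic. These had a median log2 ratio of -0.25 with 18 below 0, and 6 of them (26.1%) passed the lower limit, beside a median of -0.17, 66.2% below 0 and 14.8% past the limit for all intronic peaks. The 4 peaks within 1 kb of a TSS were all below 0 with a median of -0.24, beside -0.04 and 55.5% below 0 for all peaks this near a TSS. They include the pair at Runx1 P2, whose windows overlap, and each of the 4 counting intervals took in 0. For the 16 peaks over 10 kb from a TSS the median was -0.21, beside -0.18 for all such peaks. By mean density, 12 of the 30 were in the strongest 25% of all peaks and 4 in the weakest 25%, with a median percentile of 57.3.

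**Figure D3:**
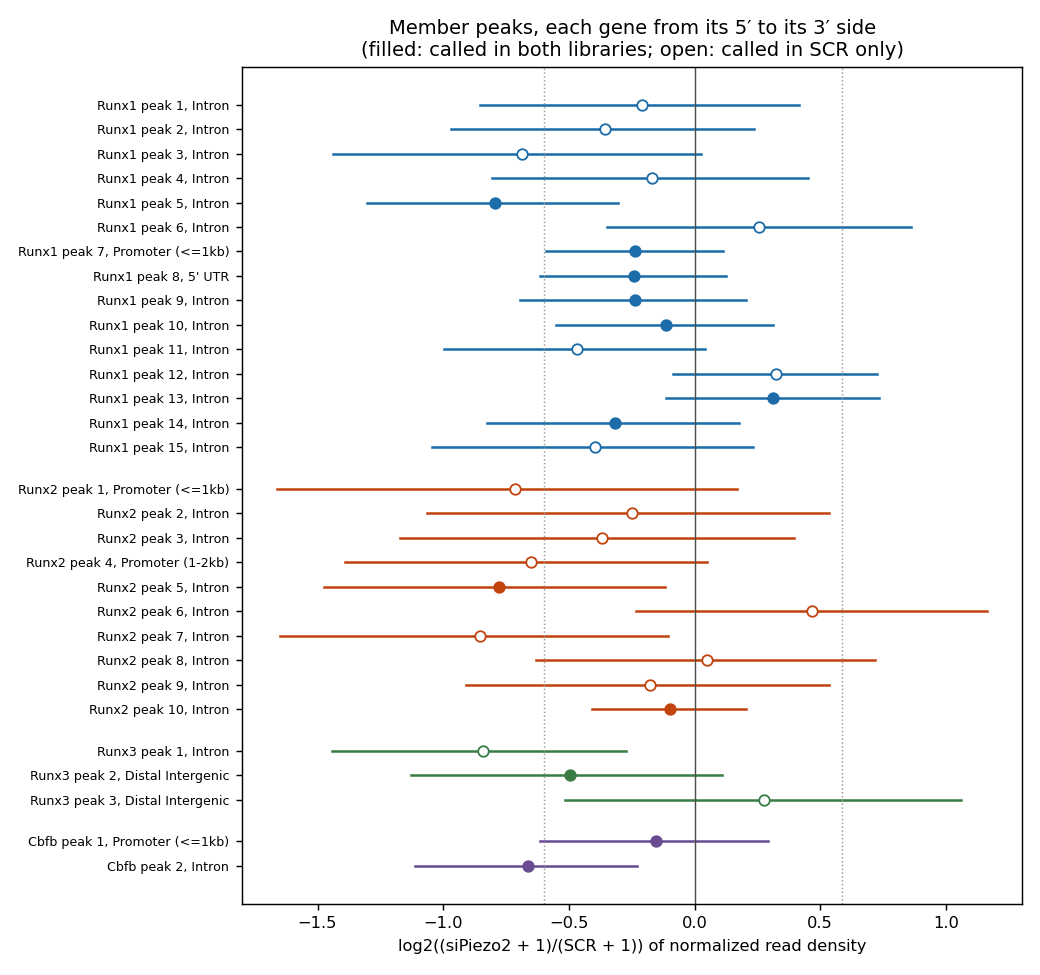
Log2 ratio (horizontal axis, siPiezo2 over SCR) of each of the 30 peaks, grouped by gene and ordered along it, with 95% intervals for counting error and filled points for peaks called in both libraries. Most points lie left of 0, and the 6 to the right of it have intervals that include 0.

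Runx1 (ENSMUSG00000022952, minus strand of chromosome 16, 92398354 to 92623037) had 15 peaks, more than 98.2% of all genes with a peak. Its strongest peaks lay at P2. The promoter peak from 92494134 to 92494505 had densities of 80.2 (SCR) and 68.0 (siPiezo2) on 213 and 101 reads, a log2 ratio of -0.24 [-0.59 to 0.11]. The neighbouring peak in the 5′ UTR, from 92493461 to 92493872, had 73.7 and 62.2 on 194 and 93 reads, also -0.24 [-0.61 to 0.12]. Their windows overlap, so that some reads count in both. They stood at percentiles 97.7 and 96.9 of all peaks in mean density, and neither difference was beyond counting error. The third strongest peak, from 92418244 to 92418461 in intron 6 of 7, had 47.5 and 59.6 and is described with its neighbour below.

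Between P1 and P2 of Runx1, 128.8 kb apart, lay 6 peaks, of which 5 were below 0. Summed, they had 181 (SCR) and 140 (siPiezo2), a log2 ratio of -0.37 [-0.61 to -0.13], widened to -0.71 to -0.03. The windows of 2 of the 6 overlap, so these intervals are too narrow, and with the factor of 4.75 the interval was -0.88 to 0.14. With 1 of that pair left out, the other 5 had 156 and 118, a log2 ratio of -0.40 [-0.66 to -0.14], widened to -0.77 to -0.03. The lowest was a peak in intron 2, from 92574906 to 92575526, which had 53.4 in SCR and 30.4 in siPiezo2 on 134 and 47 reads. Its log2 ratio was -0.79 [-1.30 to -0.30], widened to -1.50 to -0.09, and it was called in both libraries. It was the only Runx1 peak whose interval lay wholly below 0. The next lowest, from 92585444 to 92585740, also in intron 2, had 24.5 and 14.8, a log2 ratio of -0.69 [-1.44 to 0.02]. A peak nearer to P2, from 92507068 to 92507351, ran the other way, with 22.7 and 27.3 and a log2 ratio of 0.26 [-0.35 to 0.86].

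Downstream of P2, in the part of Runx1 common to transcripts from both promoters, 5 of 7 peaks were below 0. The summed density there was 303 and 287, a log2 ratio of -0.08 [-0.25 to 0.09], which did not differ from 0 beyond counting error. Its interval overlapped that of the 6 peaks between the promoters, so the stretches were not told apart. The peak from 92420753 to 92421243 was the lowest here, with 42.0 and 30.0 and a log2 ratio of -0.47 [-0.998 to 0.04]. A pair of peaks close by in intron 6 was higher in siPiezo2. The first, from 92417648 to 92417953, had 43.9 and 54.7, a log2 ratio of 0.31 [-0.12 to 0.73], and the second, from 92418244 to 92418461, had 0.32 [-0.08 to 0.73]. These are the most positive peaks of the gene, each interval includes 0, and their windows overlap, so they are not separate measurements. The remaining peaks of Runx1 had log2 ratios from -0.39 to -0.11.

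**Figure D4:**
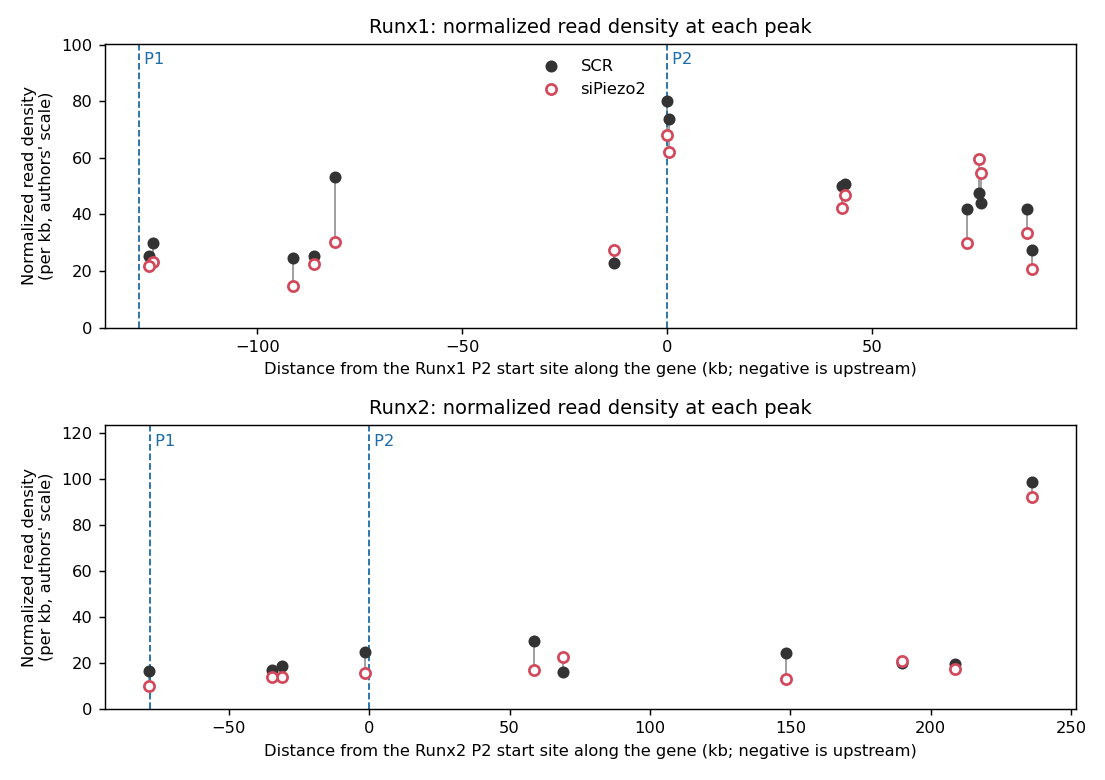
Normalized read density of each Runx1 and Runx2 peak (vertical axis, reads per kb on the authors' scale) by its distance along the gene in kb (horizontal axis), in SCR and siPiezo2. The Runx1 peaks at P2 and the Runx2 peak in the last intron are the strongest of their genes, and most siPiezo2 points sit below their SCR points.

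Runx2 (ENSMUSG00000039153, minus strand of chromosome 17, 44806874 to 45125684) had 10 peaks, more than 95.2% of genes with a peak, of which 8 were below 0. Its strongest peak was not at a promoter. In intron 5 of 5, from 44811111 to 44811748, densities were 98.6 and 92.0 on 268 and 134 reads, the highest of the 30 peaks and above 99.2% of all peaks. Its log2 ratio was -0.10 [-0.41 to 0.21], close to the median of all peaks. The peak over P1, from 45125675 to 45125967, was among the weakest, above only 5.01% of all peaks, with 16.6 and 9.73 on 37 and 16 reads. Its log2 ratio was -0.71 [-1.66 to 0.17], so a difference was not detectable at this depth even though the ratio is below 0.66. At P2, 78.1 kb away, no peak lay over the TSS, and the nearest, from 45048850 to 45049100, had 24.8 and 15.4, a log2 ratio of -0.65 [-1.39 to 0.05].

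The lowest peaks of Runx2 were in introns. A peak in intron 5, from 44898930 to 44899280, had 24.2 and 13.0, a log2 ratio of -0.85 [-1.65 to -0.11]. In intron 3, from 44988672 to 44989059, a peak called in both libraries had 29.5 and 16.8, a log2 ratio of -0.78 [-1.47 to -0.12]. Both intervals lay below 0 for counting error alone, and both took in 0 once widened. The highest was the neighbouring intron 3 peak from 44978383 to 44978642, with 16.0 and 22.5 on 37 reads in each library, a log2 ratio of 0.47 [-0.23 to 1.16]. The peak from 44857646 to 44858011 was next, at 20.1 and 20.9 and 0.05 [-0.63 to 0.72]. The 2 peaks between the promoters were both below 0 and summed to 35.2 and 28.0, a log2 ratio of -0.32 [-0.88 to 0.22]. The 6 peaks downstream of P2 summed to 208 and 182, a log2 ratio of -0.19 [-0.40 to 0.02].

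Runx2 shares its locus with other genes, and 3 peaks inside its body are annotated to them. The antisense gene Runx2os2 had a peak from 45020739 to 45021144 with 35.4 and 31.1, a log2 ratio of -0.18. Supt3, which encodes a subunit of the SAGA coactivator complex, had a peak from 45087732 to 45088227 with 32.6 and 44.7, a log2 ratio of 0.45 [-0.04 to 0.92], and another from 45108306 to 45108692 with 24.6 and 19.8, or -0.30. A further Supt3 intron peak, 128.9 kb from the Runx2 TSS, had 14.3 and 13.3, or -0.10. Open chromatin cannot be assigned to one of overlapping genes by its reads, and with the 3 peaks in the body added, the Runx2 sum went from 377 to 331, a log2 ratio of -0.19 [-0.35 to -0.03] in place of -0.27. Adding the further Supt3 peak as well gave -0.18 [-0.34 to -0.03]. The bodies of Runx1, Runx3 and Cbfb held only peaks annotated to themselves.

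Runx3 (ENSMUSG00000070691, plus strand of chromosome 4, 134847963 to 134905301) had 3 peaks and none within 1 kb of a TSS. In intron 1 of 5, from 134873938 to 134874448, a peak called in SCR only had 40.5 in SCR and 22.2 in siPiezo2 on 99 and 35 reads. Its log2 ratio was -0.84 [-1.44 to -0.27], widened to -1.66 to -0.03, close to the lowest of all 30 peaks. The intergenic peak from 134916804 to 134917303, 36.8 kb from the nearest Runx3 TSS, had 30.4 and 21.3, a log2 ratio of -0.50 [-1.13 to 0.11]. The other intergenic peak, from 134930605 to 134930864 and 50.5 kb away, had 13.8 and 16.9, a log2 ratio of 0.27 [-0.52 to 1.06]. The low value of Runx3 as a gene thus came from its intronic peak and the nearer intergenic one, and with the intronic peak alone it was -0.84.

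Cbfb (ENSMUSG00000031885, plus strand of chromosome 8, 105897306 to 105944621) had 2 peaks, both called in both libraries. The promoter peak from 105897005 to 105897488 had 47.0 in SCR and 42.1 in siPiezo2 on 119 and 65 reads. Its log2 ratio of -0.16 [-0.61 to 0.29] was not beyond counting error. The peak in intron 3 of 5, from 105913122 to 105913606, was the stronger, with 63.9 and 40.0 on 164 and 61 reads and a log2 ratio of -0.66 [-1.11 to -0.23], widened to -1.28 to -0.04. The lower sum of Cbfb therefore came mainly from its intron, and the intervals of the 2 peaks overlapped.

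The genes most like each member in the log2 ratio, among those with a similar number of peaks, were Chd9, Ntrk3 and Sorcs2 for Runx1, and 4930543E12Rik, Mob3b and Deptor for Runx2. For Runx3 they were Dnajc6, Mrln and Purb, and for Cbfb they were Gm35618, Atad2b and H2ac6. Likeness here is over 2 libraries only.

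Proteins that work with RUNX factors were listed as 42 cofactors and regulators, including corepressors, histone acetyltransferases, SMAD proteins and ubiquitin ligases. Of these genes, 36 had a peak, 18 of them below 0, with a median log2 ratio of 0.00, beside -0.11 over all genes. In either direction, 0 of the 36 passed 1.5-fold, beside 6.45% of all genes lower and 1.49% higher. The lowest was Zfp521, a zinc finger protein that represses RUNX2 activity, with summed densities of 517 and 402, a log2 ratio of -0.36 [-0.50 to -0.22]. Cbfa2t2, a corepressor of the ETO family, had 253 and 197, also -0.36 [-0.56 to -0.16]. The highest was Sin3a, the scaffold of a histone deacetylase complex, at 0.35 [0.09 to 0.60], which took in 0 once widened, at -0.02 to 0.71. Log2 ratios in the list ran from -0.36 to 0.35, a range that takes in Runx1 and Runx2 but not Runx3 and Cbfb.

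Genes known as targets were described by 2 lists. Of 24 RUNX2 and skeletal target genes, which include Runx2 itself, 15 had a peak, 10 of them (66.7%) below 0, with a median of -0.14, beside 65.7% and -0.11 for all genes. The lower limit was passed by 1 (6.67%) and the higher by 0, beside 6.45% and 1.49% of all genes, so the list stood near the background. The gene past the lower limit was Tnfrsf11b, which encodes the decoy receptor osteoprotegerin, with summed densities of 262 and 162, a log2 ratio of -0.69 [-0.90 to -0.48]. Next was Col1a1, a chain of type I collagen, with 854 and 583, a log2 ratio of -0.55 [-0.67 to -0.44]. At the other end stood Galnt3, a glycosyltransferase, at 0.21 [-0.38 to 0.79] and Vegfa, an angiogenic growth factor, at 0.16 [-0.08 to 0.39]. No peak was found for 9 listed genes, among them the bone genes Bglap, Ibsp, Sp7 and Spp1, while other bone genes of the list did have peaks.

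Of 24 target genes of RUNX1 and RUNX3 in blood cells, 11 had a peak, 6 of them (54.5%) below 0, with a median of -0.01. Past the lower limit were 2 and past the higher limit 1, beside 6.45% and 1.49% of all genes. The 2 lower genes were Itgae, an integrin of mucosal T cells, at -1.08 [-1.75 to -0.46], and Mpo, the myeloperoxidase of neutrophils, at -0.72 [-1.29 to -0.17]. Past the higher limit was Cd4, the T-cell co-receptor, at 0.70 [0.17 to 1.24], on 58 and 63 reads at 1 peak. Spi1, which encodes the myeloid factor PU.1, had 0.45 [0.08 to 0.82] over 3 peaks. Once widened, the intervals of Cd4 (-0.05 to 1.46), Spi1 (-0.08 to 0.98) and Mpo (-1.50 to 0.06) took in 0, and that of Itgae (-1.98 to -0.19) did not. No common direction was seen in this list, and its extreme values rested on few reads. Some listed genes with more reads also had counting intervals that left out 0, in both directions.

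Markers of the cell types that a heart fibroblast culture could hold were checked, since RUNX1 and RUNX3 are best known from leukocytes. Of 9 fibroblast markers, 7 had a peak (all but Lum and Thy1) and all 7 had one within 1 kb of a TSS, with summed densities of 2642 in SCR and 2077 in siPiezo2. Of 8 leukocyte markers, 3 had a peak and 0 had one near a TSS, with sums of 196 and 165, and Adgre1, Cd3e, Cd68, Cd79a and Lyz2 had none. Of 5 endothelial markers, 4 had a peak and 1 had one near a TSS (sums 722 and 712). Of 5 cardiomyocyte markers, 3 had a peak and 1 had one near a TSS (363 and 324). Mural and smooth muscle markers had a peak in 5 of 5 cases and near a TSS in 3 (688 and 558). Fibroblast markers thus had a peak near a TSS most often, and markers of other cell types were not without open sites. All 5 marker sums were lower in siPiezo2, with log2 ratios of -0.35 for fibroblast, -0.30 for mural, -0.25 for leukocyte, -0.16 for cardiomyocyte and -0.02 for endothelial markers, beside -0.26 for the RUNX family. Their part in the result was not tested.

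The scale between the libraries changed several values. Scaling by median of ratios moved the median of all genes from -0.11 to 0.02, and scaling recovered reads to the same total moved it to 0.03, with 8.27% and 7.30% of all peaks then lower past 1.5-fold and 6.20% and 7.80% higher. On these scales 22 and 21 of the 30 RUNX family peaks were below 0, against 24 as reported, beside 49.99% and 48.0% of all peaks. The lower limit was passed by 4 and 5, against 8 as reported, and the higher limit by 1 on each. In all 10 alternatives each of the 4 genes stayed below 0 and below the median of all genes under the same setting. These 10 include unscaled reads, with which 95.1% of all peaks were below 0. They also include settings that left a value unchanged, such as separate windows for Runx2 and Cbfb. Under median of ratios the values were -0.06 for Runx1, -0.13 for Runx2, -0.35 for Runx3 and -0.29 for Cbfb, and on that scale the counting interval of each of the 4 genes took in 0. The interval also took in 0 for Runx1 with both libraries at the same total density, and for Runx2 and Runx3 with recovered reads at the same total. Other choices moved single genes as far, the strongest peak alone giving -0.84 for Runx3 and -0.10 for Runx2.

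**Figure D5:**
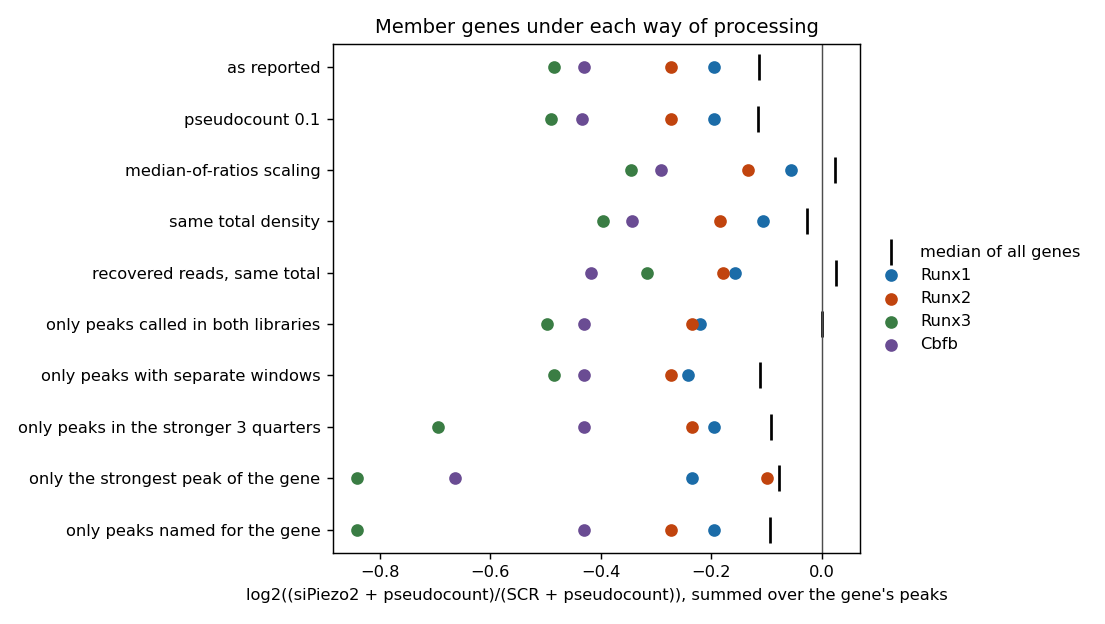
Log2 ratio of summed density (horizontal axis, siPiezo2 over SCR) of each RUNX family gene under each way of processing (rows). The rows are the reported processing and the alternatives other than unscaled reads, each with the median of all genes under the same setting. The 4 genes lie left of 0 in each row.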

How the data were processed

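ATAC-seq libraries of SCR and siPiezo2 fibroblasts (1 each) were compared. Per the study's methods the authors trimmed adapters, aligned with bwa (BWA 0.7.12 and mm10 in the submitters' processing notes), removed duplicates with Picard and called peaks with MACS2. The methods also name featureCounts for counting reads in peaks. The authors deposited 1 table whose signal columns are normalized read densities, and a log2 column of the authors holds a mean density. No source used here names their normalization, and a linear fit over the peaks common to both libraries was inferred from the column names and values. The authors' own log2 ratios and p-values were not used. The series description and the methods differ from the sample labels in gene, tissue and kit, and the labels and the legend of the experiment were followed.

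From both kinds of column, the reads in each 2000 bp window came out whole for 100% of peaks (tolerance 0.05 reads), and 6297 peak windows overlap the one before. Ratios used a pseudocount of 1, and densities were summed over the peaks of a gene. The limits were 0.66 and 1.5. No test between conditions was made. Named peaks were those within 1 kb of a TSS, the 3 strongest, 3 lowest and 3 highest of a gene, or all where it had 5 or fewer. Named list genes were the 2 lowest and 2 highest with at least 100 reads, and Cd4, Mpo, Itgae and Spi1 fell under this rule, while 1 cofactor gene it named is not reported here. Genes listed as having no peak were named after seeing the data. Members and lists were chosen with earlier results of these data known. The wider intervals, intervals on other scales and with separate windows, the stretches between start sites, unscaled reads and peaks named for the gene were added after seeing the data. Read recovery and intervals were tested on simulated data. Software was scipy 1.17.1, numpy 2.4.6, pandas 2.3.3 and matplotlib 3.10.9 under Python 3.11.15.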

Additional observations from a re-analysis of the deposited data

How the results depend on the processing

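Of 84 values under alternative settings, 69 stayed within the interval of the reported value (for genes from counting error, for list medians from the order of the listed genes) or within 1.5 times the count, and 15 moved. The 4 genes kept their sign. List medians near 0 did not all do so. The blood target median, -0.0056 as reported, was above 0 in 7 of 8 alternatives and reached 0.26. The skeletal target median, -0.14 as reported, was 0.0020 with recovered reads at the same total. The cofactor median, 0.0021 as reported, was -0.023 with the stronger peaks only. Median-of-ratios scaling gave -0.056 for Runx1, a cofactor median of 0.14, 4 lower and 1 higher RUNX family peaks past 1.5-fold. Recovered reads at the same total gave 5 lower and 1 higher. With no scaling the reads gave -0.90 for Runx1, -0.92 for Runx2, -1.05 for Runx3 and -1.15 for Cbfb, with 24 peaks lower, which holds the difference in depth. With peaks called in both libraries only, 3 peaks were lower and the cofactor median was 0.12, and with the strongest peak of each gene that median was 0.11. At a limit of 2-fold, 0 peaks were lower.

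No paired analysis was possible because each condition had 1 library, and no replicate was left out for the same reason. Depth limits single peaks most, with a median of 102.5 reads over both libraries at the RUNX family peaks. The genome of the table's assembly was not used here, so peaks away from RefSeq promoters were not searched for motifs.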
